A study of Mus musculus with 2 samples.

Results

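Very long genes were taken as the autosomal protein-coding genes of GENCODE vM21 (the annotation of the mouse genome build GRCm38, or mm10) with a span over 500 kb. They were 218 of 20807 genes, or 1.05%. The rule used gene length and position and no measured value. The genes were between 501.8 and 4435 kb long with a median of 732.9 kb, against a median of 17.6 kb over all autosomal protein-coding genes. Each of the 19 autosomes carried between 4 and 19 of them, 55 were longer than 1000 kb, and their spans covered 185.9 Mb.

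CpG states in these genes were read by SCoTCH-seq in genomic DNA of E14 mouse embryonic stem cells (mESCs), an established line, grown on gelatin in medium with serum and LIF. SCoTCH-seq copies and joins the strands of a DNA fragment, so that a read pair gives the state of both cytosines of a CpG. C stands for unmodified cytosine, M for 5-methylcytosine and H for 5-hydroxymethylcytosine, and the first letter is the plus strand, which gives 9 states. MC and CM (hemimethylation), HC and CH (hydroxymethylation opposite unmodified cytosine) and HM and MH (hydroxymethylation opposite methylation) were each pooled, which leaves 6 groups. There was 1 condition and there were 2 libraries, replicate 1 and replicate 2, from separate passages of the same line, so no comparison between conditions was possible.

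Long genes are known for huge introns and for a high share of genes used in neurons, such as those for synaptic adhesion proteins, glutamate receptors and ion channels. Several of the longest lie at common fragile sites, regions that break when replication is slowed. In mESCs, DNMT1 and UHRF1 copy methylation onto the new strand after replication, DNMT3A and DNMT3B add it anew, and TET enzymes oxidise 5-methylcytosine to 5-hydroxymethylcytosine. Hydroxymethylation in gene bodies has been linked to transcription in many tissues, but transcription was not measured in the libraries used here.

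The libraries held 143497239 calls at 13676795 CpG sites in replicate 1 and 31306245 calls at 4918612 sites in replicate 2. Sites within 2 kb of the start of a long gene were left out, and the rest of the long genes held 10126598 calls at 946028 sites and 2047098 calls at 325273 sites. The median depth in them was 10 and 6 calls a site. The number of calls in a long gene ran from 7818 to 419759 in replicate 1 and from 1314 to 104567 in the shallower replicate 2. A level is the share of a group of states among all calls of a gene or region, and all levels are uncorrected for miscalls except where named. Synthetic duplexes in the same libraries showed that 4.51% of the calls at MM sites were read as HM or MH in replicate 1 and 0.467% in replicate 2. For MC sites, 3.49% and 0.618% were read as HC or CH. As a check of the label, the CC level within 1 kb of the start was 98.7% and 100% at Pou5f1, 99.8% and 100% at Sox2, and 28.0% and 15% at Esrrb, against 10.8% and 7.14% at the liver gene Alb. It was 80.1% and 86.2% at Nanog, 97.2% and 98.8% at Zfp42, 14.3% and 15% at the insulin gene Ins2, and 43.3% and 27.8% at the astrocyte gene Gfap, above the level at Esrrb, so this check of the label held for 4 of the 5 pluripotency genes.

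The long genes were poor in CpGs, with a median of 6.80 CpGs per kb and a range of 3.92 to 17.2, against a median of 10.4 in the other genes. The following 300-base windows are not typical of this DNA, since they had to hold many covered sites, and contain 17, 9 and 33 CpGs. They are the windows with the highest HC/CH, MC/CM and CC level, by the lower of the replicates, among the 166 windows searched. Those 166 windows lie in 68 long genes and have at least 8 covered CpG sites in each replicate. Windows outside the 166 were not ranked and may have higher HC/CH or MC/CM levels. Each window shown is the plus strand of GRCm38 from 5′ to 3′, with CG in capitals.

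Camta1, chr4:151085922-151086221, highest HC/CH: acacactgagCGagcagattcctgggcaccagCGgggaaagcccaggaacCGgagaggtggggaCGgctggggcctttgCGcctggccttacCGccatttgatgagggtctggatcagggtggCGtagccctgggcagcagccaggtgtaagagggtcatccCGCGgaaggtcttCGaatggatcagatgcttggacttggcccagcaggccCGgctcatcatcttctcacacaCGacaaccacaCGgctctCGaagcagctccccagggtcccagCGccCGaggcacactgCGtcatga

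Ctnna3, chr10:63459399-63459698, highest MC/CM: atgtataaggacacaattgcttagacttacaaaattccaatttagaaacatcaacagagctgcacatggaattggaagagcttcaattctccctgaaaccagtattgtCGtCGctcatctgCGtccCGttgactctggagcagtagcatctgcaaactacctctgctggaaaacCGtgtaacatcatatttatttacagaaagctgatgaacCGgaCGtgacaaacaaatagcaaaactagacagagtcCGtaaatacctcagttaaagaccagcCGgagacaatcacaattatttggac

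Iqschfp, chr3:68494833-68495132, highest CC: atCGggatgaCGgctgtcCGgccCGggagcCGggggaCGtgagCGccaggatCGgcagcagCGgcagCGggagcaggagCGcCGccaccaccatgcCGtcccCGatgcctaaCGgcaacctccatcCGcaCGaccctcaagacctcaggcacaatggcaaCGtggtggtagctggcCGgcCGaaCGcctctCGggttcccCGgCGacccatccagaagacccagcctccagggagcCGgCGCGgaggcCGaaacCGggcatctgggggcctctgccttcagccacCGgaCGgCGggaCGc

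The Camta1 window overlaps a coding exon of this gene, which encodes a calmodulin-binding transcription activator, and lies 775.7 kb from its start and 3.4985 kb from the nearest annotated transcript start, of Gm13090. Its HC/CH level was 14.4% in replicate 1 (16 of 111 calls; 95% exact Clopper-Pearson interval 8.47 to 22.4%) and 17.0% in replicate 2 (8 of 47 calls; 7.65 to 30.8%). The median over the 166 windows was 2.76% and 2.20%. The HC/CH calls came from 9 of 14 sites and from 5 of 8 sites, so they were spread over the window, although 50% of them lay at 1 site in replicate 2. These intervals cover counting error only, and a window picked as the highest of many is a description.

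The Ctnna3 window is intronic, 29.3 kb from the start of this alpha-catenin gene and 2.04 kb from the nearest transcript start, of the same gene, and had an MC/CM level of 23.4% (18 of 77 calls; 14.5 to 34.4%) and 20.4% (11 of 54 calls; 10.6 to 33.5%). The window medians of MC/CM were 6.64% and 6.44%. The Iqschfp window holds 33 CpGs and overlaps a coding exon that this readthrough gene shares with Schip1, 0.775 kb from the nearest transcript start, of Gm22073. All 121 calls of replicate 1 and all 41 calls of replicate 2 in it were CC, with lower bounds of 96.997% and 91.4%. The Iqschfp window thus had no call of any modified state at this depth. It was picked for its CC level and the other windows for modified states, so this contrast between them follows from the choice.

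Hydroxymethylation was lower in the very long genes than in shorter genes. Pooled over calls, HC/CH was 3.32% in the long genes and 4.83% in the shorter protein-coding genes in replicate 1, and 2.78% and 4.30% in replicate 2. HM/MH was 3.95% against 4.34% and 2.15% against 2.82%. The methylated states were higher, as MM was 60.3% against 56.5% and 64.7% against 60.8%, and MC/CM was 14.5% against 13.2% and 15.7% against 14.5%. CC was 17.5% against 20.6% and 14.5% against 17.4%. HH was 0.443% against 0.494% in replicate 1 and 0.121% against 0.189% in replicate 2. It was not tested, as a level near that of the miscalls, which holds for replicate 1. There 0.709% of the calls at MM sites were read as HH, against 0.0117% in replicate 2. After correction HH was 0% against 0.0116% in replicate 1 and 0.104% against 0.169% in replicate 2.

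For each replicate, the difference on each autosome was tested by flipping signs in all combinations (an exact permutation test, two-sided), with Benjamini-Hochberg adjustment over 5 groups of states and both replicates. It was called only where both replicates passed 0.05 with the same sign. The autosomes of a library come from the same cells, so these p-values measure only the spread between autosomes. HC/CH was lower in the long genes by 1.60 percentage points in replicate 1 (SD 0.421 over 19 autosomes) and by 1.61 in replicate 2 (SD 0.477). It was lower on 19 of 19 autosomes in both, with an adjusted p of 9.54e-06, which comes from 3.81e-06, the smallest p that this exact test can give. HM/MH differed by −0.456 (SD 0.261) and −0.735 (SD 0.258) and was lower also on 19 of 19 autosomes, with the same adjusted p from the exact test. MC/CM was higher by 1.31 (SD 0.825) and 1.25 (SD 0.868) on 18 of 19 autosomes, with exact permutation adjusted p-values of 1.30e-04 and 1.78e-04. MM was higher by 3.32 (SD 3.93) and 3.45 (SD 4.31) on 18 of 19 autosomes, with exact permutation adjusted p-values of 0.00323 and 0.00387.

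CC differed by −2.51 (SD 4.86) and −2.28 (SD 4.94) percentage points and was lower on 17 of 19 autosomes, but with exact permutation adjusted p-values of 0.0344 and 0.05004 it was not called. Chromosome 18 stood apart from the others, with CC higher in its long genes by 15.7 and 16.5 and MM lower by 11.1 and 12.7. On it, 3 of the long gene models, Gm42416, Gm37013 and Gm37388, overlap each other across the clustered protocadherin genes and hold 36, 33 and 31 other protein-coding genes in their spans. In all, 6 gene models hold at least 5 other protein-coding genes, the others being Gm20388 (71), Fgfr2 (29) and Gm37240 (6). Without these 6 models, an alternative chosen after seeing the data, CC differed by −3.68 and −3.50 and was called, with an exact permutation adjusted p of 7.63e-06 in both replicates. HC/CH then differed by −1.72 and −1.77 and MM by +4.38 and +4.67, each on 19 of 19 autosomes.

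**Figure D1:**
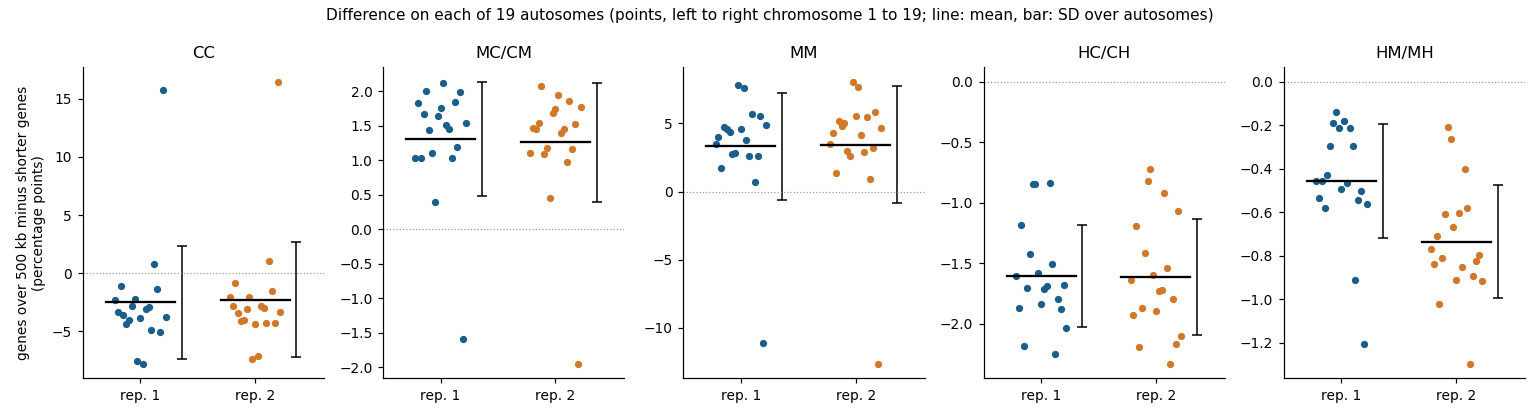
Difference in the level of 5 groups of CpG states between genes over 500 kb and shorter genes, in percentage points on the vertical axis, with 1 point for each of the 19 autosomes in each replicate, a line for the mean and a bar for the SD over autosomes. HC/CH and HM/MH lie below 0 on all 19 autosomes in both replicates, while chromosome 18 lies far from the others for CC, 15.7 and 16.5 points above 0, and for MM.

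The levels changed with length across all genes, below 500 kb as well. HC/CH was 5.41% and 5.04% in genes under 20 kb, 4.68% and 4.15% in genes of 100 to 250 kb, 3.94% and 3.35% at 250 to 500 kb, 3.52% and 2.91% at 500 to 750 kb and 3.12% and 2.63% at 750 to 1000 kb. It was 3.24% and 2.78% in the 55 genes over 1000 kb. These levels are pooled over calls, so genes with many calls weigh more. The class over 1000 kb includes Gm20388 and Fgfr2, models that hold 71 and 29 other genes. Gm20388 had the most calls of any long gene and the highest HC/CH level, 5.74% and 5.28%. The pooled level without these models was not computed. By the median over genes, HC/CH was lower over 1000 kb than at 750 to 1000 kb in both replicates, so the rise was seen in the pooled level only. CC was 29.6% and 25.6% in the shortest class and 16.7% and 13.7% at 250 to 500 kb, and it lay between 13.2 and 19.7% in the classes over 500 kb over both replicates. Against the 2154 genes of 100 to 500 kb, HC/CH was still lower in the long genes, by 1.20 and 1.18 percentage points on 19 of 19 autosomes, and HM/MH by 0.452 and 0.603, also on 19 of 19. MC/CM was higher by 0.597 and 0.520 and was called. MM differed by +0.967 and +1.11 and CC by +0.144 and +0.208 and neither was called, so the call for MM above depends on the inclusion of genes under 100 kb.

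**Figure D2:**
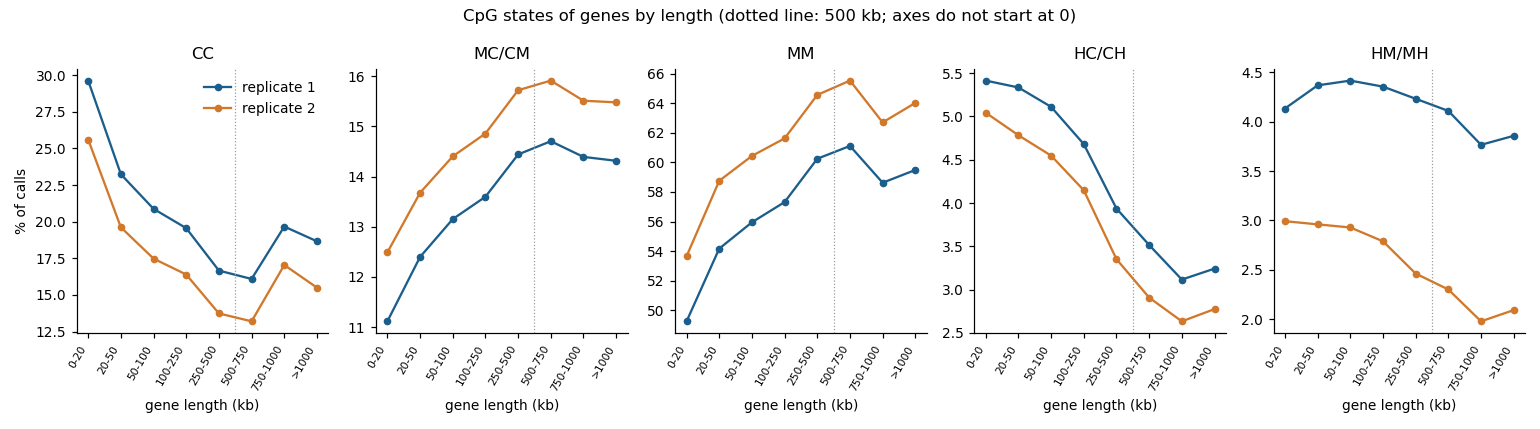
Levels of the CpG states, in percent of calls on the vertical axes, in genes grouped by length in kb on the horizontal axes, with 1 line for each replicate and a dotted line at 500 kb. Pooled over calls, HC/CH falls from 5.41% and 5.04% in genes under 20 kb to 3.12% and 2.63% in genes of 750 to 1000 kb. It is 3.24% and 2.78% in the longest class, where the median over genes is lower than at 750 to 1000 kb in both replicates.

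The level also followed the local density of CpGs within the long genes. At sites with 1 to 2 CpGs in the surrounding 500 bases, the site itself included, HC/CH was 2.37% and 1.79%, and it was 2.91% and 2.35% at 3 to 5 CpGs, 3.95% and 3.36% at 6 to 10 and 5.32% and 4.78% at 11 to 20. At 21 or more CpGs, where CC was 78.5% and 76.1%, HC/CH was 2.96% and 3.31%. MC/CM ran the other way, from 17.0% and 18.2% at 1 to 2 CpGs to 10.1% and 11.4% at 11 to 20. The contrast with shorter genes was therefore repeated at sites of like density, alternatives chosen after seeing the data. At 3 to 5 CpGs, HC/CH was lower in the long genes by 1.32 and 1.27 percentage points on 19 of 19 autosomes, and at 6 to 10 CpGs by 1.39 and 1.43 on 19 of 19. HM/MH was lower by 0.328 and 0.559 at 3 to 5 CpGs and by 0.293 and 0.548 at 6 to 10, and was called at both.

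After correction with the call rates of the duplexes, HC/CH was 2.75% in the long genes against 4.33% in the shorter ones in replicate 1 and 2.69% against 4.29% in replicate 2. HM/MH was 1.02% against 1.62% and 1.79% against 2.45%. The corrected HC/CH levels of the replicates were closer to each other than the uncorrected 3.32% and 2.78%, and the direction was the same.

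No difference was called between the long genes and the DNA beside them when all of the genes were used. In the 100 kb on either side that lies in no annotated gene, HC/CH was 3.38% and 2.93%, HM/MH 3.92% and 2.15%, MM 58.9% and 63.0% and CC 18.9% and 16.04%. By autosome, the long genes differed from these flanks in HC/CH by −0.0969 (SD 0.375) and −0.181 (SD 0.525) percentage points, in MM by +0.942 (SD 4.09) and +1.45 (SD 4.04) and in CC by −1.01 (SD 4.53) and −1.24 (SD 4.30). None of the 5 groups of states was called, with exact permutation adjusted p-values of at least 0.630, and 0 of them were under 0.05 before adjustment. Without the 6 gene models that hold many other genes, CC differed by −2.01 and −2.14, MM by +1.91 and +2.41 and HC/CH by −0.206 and −0.330. These 3 were then called, with exact permutation adjusted p-values for HC/CH of 0.00114 and 5.59e-04. The same 3 were called when sites in any other protein-coding gene were left out, with HC/CH at −0.190 and −0.306. All DNA outside annotated genes had an HC/CH level of 3.63% and 3.27%, above the 3.32% and 2.78% of the long genes.

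Within the long genes, HC/CH pooled over calls was lowest before the middle and highest at the 3′ end. Each gene was cut into 10 equal parts, numbered from part 1 at its start to part 10 at its end. HC/CH was 3.42% and 3.01% in part 1, reached its lowest level of 3.08% in part 4 in replicate 1 and of 2.53% in part 3 in replicate 2, and was 3.65% and 3.17% in part 10. Its median over genes was lowest in part 2 in replicate 1, at 2.69%, and in part 5 in replicate 2, at 2.05%. That median was also highest in part 10, at 3.15% and 2.48%. Pooled over calls, MM was 58.4% and 62.7% in part 1 and 60.99% and 65.9% in part 3. CC had its highest level in replicate 1 in part 1 (19.4%) and in replicate 2 in part 9 (16.5%), where replicate 1 had 19.3%. The median over genes of MM was 60.8% and 64.8% in part 1 and 62.3% and 66.8% in part 10, and that of CC was 16.5% and 13.0% in part 1 and 15.1% and 11.5% in part 10. HM/MH was 3.85% and 2.22% in part 1 and 4.06% and 2.37% in part 10. Its lowest level was in part 1 in replicate 1 but in part 3 in replicate 2, at 2.01%. After correction for miscalls the lowest in replicate 1 was part 5, at 0.910%, against 1.01% in part 1. In genes of 100 to 500 kb, CC went from 22.3% and 19.5% in part 1 to 17.3% and 14.1% in part 10.

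Of the 5 groups of states, HM/MH alone differed between part 10 and part 1 by the rule for both replicates, by +0.229 (SD 0.175) and +0.234 (SD 0.342) percentage points, on 18 and 13 of 19 autosomes, with exact permutation adjusted p-values of 2.29e-04 and 0.0249. HC/CH differed by +0.349 (SD 0.523) and +0.310 (SD 0.866), higher on 14 of 19 autosomes in both, with exact permutation adjusted p-values of 0.0249 and 0.237. With at least 10 calls a site it differed by +0.312 and −0.0709, so the direction turned in replicate 2. MC/CM differed by −0.512 and −0.452, with 0.0249 and 0.185 from the exact permutation test. The last 2 passed in replicate 1 alone, which has the more calls, and whether the replicates differ in this was not tested. The HM/MH call was lost at sites with 3 to 5 CpGs nearby (exact permutation adjusted p up to 0.691) and with 6 to 10 (up to 0.528), with at least 10 calls a site (up to 0.514) and with each gene given equal weight (up to 0.0600). By distance, HC/CH was 4.04% and 3.53% in the last 5 kb of the genes and 3.24% and 2.67% at 200 to 500 kb from the end. It was also higher near the start, at 3.84% and 3.43% from 2 to 5 kb and 3.18% and 2.54% at 200 to 500 kb from the start. These bins were not tested.

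**Figure D3:**
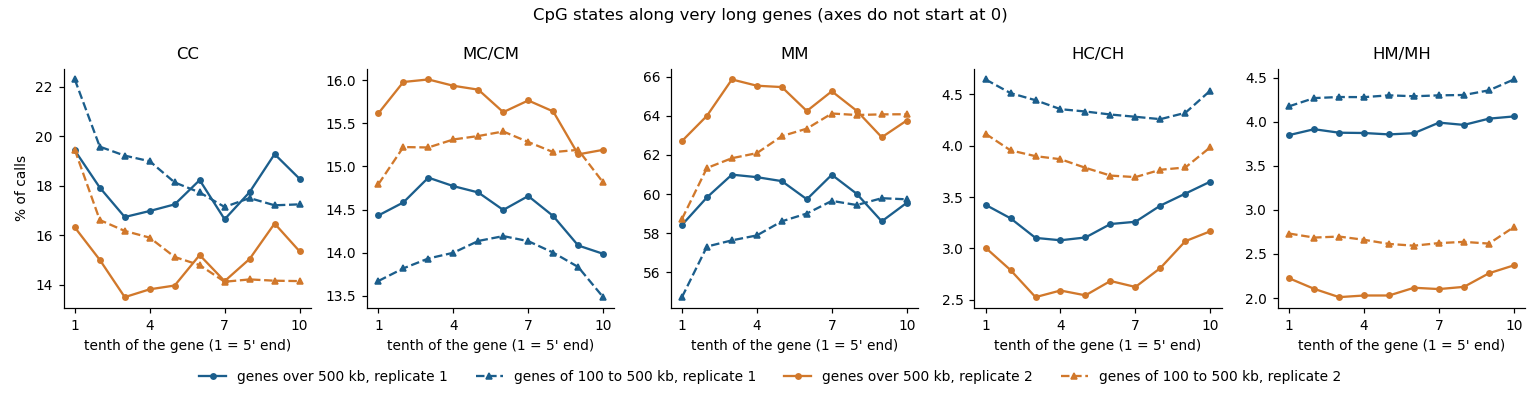
Levels of the CpG states in percent of calls on the vertical axes in each of 10 equal parts of the gene, from the 5′ end at 1 to the 3′ end at 10, in genes over 500 kb and in genes of 100 to 500 kb, with a line for each replicate. Pooled over calls, HC/CH in the long genes is lowest in part 3 or 4 and highest in part 10, at 3.65% and 3.17%. It lies below the line of the 100 to 500 kb genes in every part of the same replicate.

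Exons of the long genes carried more hydroxymethylation than their introns. HC/CH was 4.10% in exons against 3.30% in introns in replicate 1 and 3.497% against 2.76% in replicate 2, and HM/MH was 4.45% against 3.94% and 2.74% against 2.13%. The mean difference over autosomes was +0.803 (SD 0.536) and +0.714 (SD 0.732) percentage points for HC/CH, with exact permutation adjusted p-values of 3.05e-05 and 0.00136, and exons were higher on 17 and 16 of 19 autosomes. For HM/MH it was +0.602 (SD 0.468) and +0.694 (SD 0.391), on 18 of 19 autosomes, with an exact permutation adjusted p of 3.05e-05 in both. MM differed by −0.865 and −1.08 and was not called (0.469 in the exact permutation test). At sites with like numbers of CpGs nearby, neither contrast was called by the rule for both replicates. At 3 to 5 CpGs the HC/CH difference was +0.215 and −0.00538 and that of HM/MH +0.286 and +0.488. At 6 to 10 CpGs HC/CH differed by +0.411 and +0.0977 and HM/MH by +0.313 and +0.0970. Exons held 258310 of the calls in replicate 1 and 53960 in replicate 2.

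No difference was called between the sense and antisense strands of the long genes. The state with the methyl group on the sense strand alone was 7.26% and the one with it on the antisense strand 7.23% in replicate 1, and 7.82% and 7.84% in replicate 2. Hydroxymethylation opposite unmodified cytosine was 1.66% on the sense strand and 1.66% on the antisense strand in replicate 1, and 1.39% and 1.41% in replicate 2. None of MC/CM, HC/CH and HM/MH was called, with exact permutation adjusted p-values of at least 0.192. Before adjustment 1 of the 3 was under 0.05 in replicate 1 and 0 in replicate 2. The mean difference over autosomes for HC/CH was +0.000807 (SD 0.0271) and −0.0120 (SD 0.0883) percentage points.

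The genes differed among themselves far beyond counting error. HC/CH per gene ranged from 1.04 to 5.74% in replicate 1, with a median of 2.93% and an SD over genes of 0.838, against a median binomial SD of 0.0867. In replicate 2 it ranged from 0.685 to 5.28% with a median of 2.29%, an SD of 0.828 and a binomial SD of 0.170. The order of the genes was much the same in both libraries, with Spearman correlations across the 218 genes of 0.984 for CC, 0.971 for MM, 0.936 for HC/CH, 0.922 for MC/CM, 0.832 for HM/MH and 0.559 for HH. Genes are not independent replicates, so these are descriptions. Replicate 2 lay below replicate 1 in 213 of 218 genes for HC/CH and in 218 of 218 for HM/MH, and above it in 218 of 218 for MM. After correction for miscalls the HM/MH order turned, with replicate 2 above replicate 1 in 216 of 218 genes and gene medians of 0.855% and 1.53%. Corrected HC/CH of replicate 2 was below replicate 1 in 162 of 218.

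Set against all 7508 autosomal protein-coding genes with at least 500 calls in each replicate, 165 of the 218 long genes lay in the lowest 25% of HC/CH in both replicates, where 19.6% of all genes did. With at least 10 calls a site, 43 of 135 long genes that could be ranked lay in the lowest 25% (16.7% of 311 genes) and 3 in the highest (16.7%). Among the 7508 genes, the lowest 25% ended at 3.91% and 3.07%. None of the long genes, 0 of 218, lay in the highest 25% in both replicates, where 18.3% of all genes did. For HM/MH, 112 lay in the lowest 25% (13.7% of all genes) and 2 in the highest (12.1%). For MC/CM it was 101 in the highest (17.1%) and 6 in the lowest (18.7%), and for MM 89 in the highest (19.6%) and 11 in the lowest (21.8%). CC was more even, with 65 in the lowest 25% (20.3%) and 22 in the highest (22.2%). Gene medians of HC/CH were 2.93% and 2.29% in the long genes against 4.96% and 4.23% in all genes.

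HC/CH per gene went with CpG density, with a Spearman correlation of 0.805 and 0.806 across the 218 genes, and less with length, at −0.247 and −0.215. Among the 73 genes with the fewest CpGs per kb the median HC/CH was 2.37% and 1.76%, among the next 72 genes 2.96% and 2.30% and among the 73 densest genes 3.79% and 3.28%. HM/MH went with density at 0.752 and 0.832, and MC/CM against it at −0.557 and −0.500. These measures share base composition and depth, which were not separated here.

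**Figure D4:**
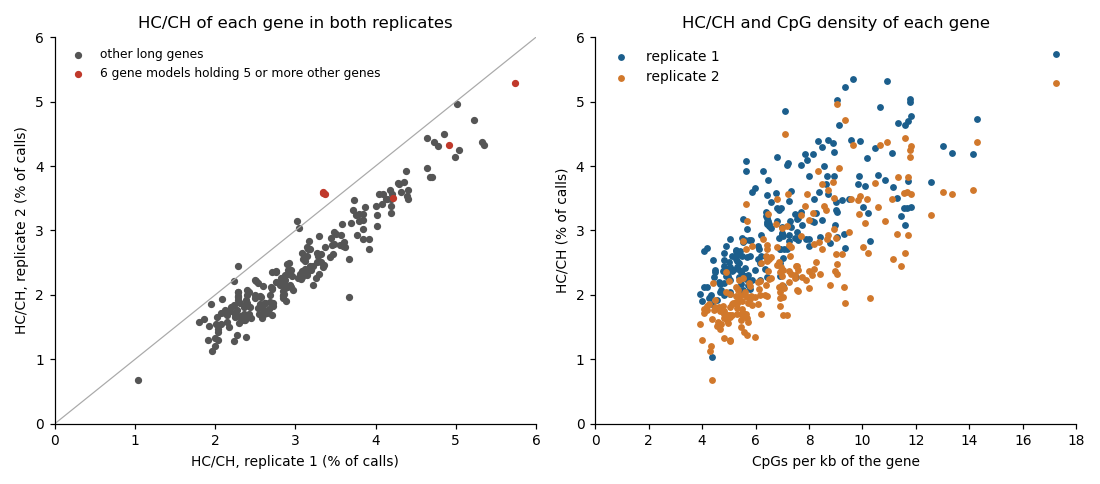
Left, the HC/CH level of each of the 218 genes in replicate 1 against replicate 2, in percent of calls, with the gene models that hold many other genes in another colour. Right, the HC/CH level against the number of CpGs per kb of the gene, for each replicate. The levels of the replicates rise together (Spearman correlation 0.936), and genes with more CpGs per kb have higher levels (0.805 and 0.806).

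The highest HC/CH levels, ranked on the lower of the replicates, were in Gm20388 (5.74% and 5.28%), Ptprg (5.02% and 4.96%), Magi1 (5.23% and 4.72%), Etl4 (4.85% and 4.49%) and Nav2 (4.64% and 4.43%). Gm20388 (chr8:119910841-124345722) is the longest model and spans 71 other genes, so its sites include those of these genes. Ptprg (chr14:11553532-12242041) encodes a receptor tyrosine phosphatase, Magi1 (chr6:93675455-94283917) a scaffold of tight junctions, and Nav2 (chr7:48908716-49610090) a neuron navigator protein. The 95% Clopper-Pearson intervals of Ptprg were 4.84 to 5.21% and 4.58 to 5.36%, and those of Magi1 were 5.04 to 5.43% and 4.34 to 5.12%, so the order of these neighbours is within counting error. By the same ranking, the highest HM/MH levels were in Magi1 (4.81% and 3.75%), Enox1 (5.26% and 3.596%) and Tenm4 (4.54% and 3.28%), of which Tenm4 encodes a teneurin, a cell adhesion protein. HC/CH was high in the same genes, at 5.32% and 4.37% in Enox1 and 5.35% and 4.32% in Tenm4.

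The lowest HC/CH levels, ranked on the higher of the replicates, were in Skint5 (1.04% and 0.685%), Zfp804b (1.80% and 1.57%), Sgcz (1.86% and 1.63%), Dpp10 (1.91% and 1.31%) and Cpq (1.93% and 1.52%). In replicate 2 alone, Fstl5 (1.96% and 1.13%) and Nrg3 (2.00% and 1.21%), named after their values were seen, came next after Skint5. Skint5 (chr4:113477891-113999503) belongs to a family of closely related genes known from skin and thymus, and it also had the lowest HM/MH (1.32% and 0.304%) and MC/CM (5.96% and 6.70%) and the highest CC (68.4% and 66.9%). In Skint5 24.3% and 8.04% of the CpGs were covered, the lowest shares among the 218 genes, so its values are uncertain. Sgcz encodes a sarcoglycan, Dpp10 a partner of potassium channels and Cpq a carboxypeptidase, and all 3 had between 3.99 and 4.55 CpGs per kb. Sgcz also stood out for CC, at 33.6% and 31.4%. After Skint5, CC was highest in Gm37388 (48.4% and 44.0%), Gm42416 (48.0% and 43.8%) and Gm37013 (48.2% and 43.8%), which share most of their sites. Ranked on the lower of the replicates, hemimethylation was highest in Fgf14 (18.4% and 19.5%), which encodes a fibroblast growth factor homologue that binds sodium channels, in Malrd1 (17.9% and 18.5%) and in Iqcm (17.5% and 18.8%). Gmds (17.5% and 20.2%), named after its values were seen, had the highest level in replicate 2.

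Of the longest genes, Fgfr2 (2961 kb in this annotation), a growth factor receptor gene, had HC/CH at 4.92% and 4.33%, and its model holds 29 other genes. Ptprd (2271 kb), a receptor phosphatase of synapses, had 2.02% and 1.65%, Cntnap2 (2245 kb), a neurexin-like adhesion gene, 2.54% and 2.18%, and Lsamp (2197 kb), a limbic adhesion gene, 2.31% and 1.67%. At the limit of the rule, Edil3 (501.8 kb), Dock1 (503.0 kb) and Car10 (503.7 kb) were just inside, with HC/CH at 2.36% and 1.81%, 4.28% and 3.74%, and 2.50% and 2.00%. Pde1c (499.3 kb), Dnm3 (495.6 kb) and Cacna1e (493.8 kb) were just outside, with 2.41% and 2.15%, 3.22% and 1.92%, and 2.91% and 2.04%.

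By function, genes for adhesion and receptors of neurons lay mostly below the middle of the long genes, and scaffolds, regulators and broadly expressed genes mostly above it. Some genes are in more than 1 list, so the lists are not separate. Of the broadly expressed genes, Foxp1 is also listed as a regulator, Pard3 as a scaffold, and Fhit, Wwox and Immp2l for fragile sites. Over all 218 genes, 100 lay above the median HC/CH of the long genes in both replicates and 100 below it in both. Of 31 synaptic and neural adhesion genes listed, 25 were long enough, and 7 of them lay above and 16 below, with a list median of 2.601% and 1.99%. Examples are Cntnap2, Lsamp and Nrxn3 (2.28% and 1.93%). Of the list of cadherins, protocadherins and alpha-catenins, 7 of 13 genes were long enough, with 1 above and 6 below. Examples are Pcdh15 (2.31% and 1.87%), a protocadherin of hair cells, and Cdh12 (2.32% and 1.61%). Of the glutamate receptors, 6 of 15 met the rule, with 1 above and 5 below. Among them were Grm7 (2.38% and 1.93%) and Grm8 (2.68% and 1.88%). The CUB and Sushi domain and LDL receptor list had 1 of its 4 genes above and 3 below, with Csmd1 at 2.09% and 1.93% and Lrp1b at 2.19% and 1.74%.

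Ion channels and their subunits (10 of 18 genes) were mixed, with 5 above and 4 below. Among them Ryr2, a calcium release channel, had 4.04% and 3.57%, and Kcnip4, a potassium channel partner, had 2.29% and 1.56%. Receptor tyrosine phosphatases (6 of 8) had 3 above and 3 below, from Ptprd to Ptprg. Phosphodiesterases and signalling enzymes (6 of 12) also had 3 above and 3 below, with Pde4d, which degrades cAMP, at 3.85% and 3.17% and the kinase Prkg1 at 2.71% and 2.11%. Genes known for common fragile sites (10 of 11) had 5 above and 5 below, among them Wwox at 4.18% and 3.63%, Fhit at 2.82% and 2.26% and Macrod2 at 2.88% and 1.90%.

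Scaffolds of junctions and synapses (11 of 12) had 10 genes above and 1 below, with a list median of 3.45% and 2.77%. Magi2 had 3.13% and 2.53% and Anks1b 3.27% and 2.51%, while Dlg2, a postsynaptic scaffold, was the gene below, at 2.56% and 1.99%. Transcription factors and RNA-binding regulators (16 of 26) had 12 above and 2 below, with a median of 3.38% and 3.001%. Auts2 had 4.39% and 3.53% and the splicing regulator Rbfox1 3.098% and 2.56%. Broadly expressed genes (13 of 31) had 11 above and 1 below, with the highest list median, 4.18% and 3.38%, and Immp2l, a mitochondrial protease gene, at 3.92% and 2.87%. CpG density also differed between these lists, with a median of 5.52 CpGs per kb in the adhesion list, 5.71 in the cadherin and catenin list and 4.87 in the glutamate receptors. It was 8.73 in the scaffolds, 9.26 in the regulators and 7.84 in the broadly expressed genes. The broadly expressed genes thus had the highest HC/CH but a lower density than scaffolds and regulators. The part of CpG density in these differences was not tested.

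The levels could change sharply inside a gene. Each gene was cut at its midpoint, and the 3′ side was compared with the 5′ side by Fisher's exact test, two-sided, in each replicate, with Benjamini-Hochberg adjustment over 7610 genes. The test counts calls as independent and so covers counting error only. HC/CH was higher on the 3′ side in both replicates in 31 of the 218 long genes, where 1.67% of all genes were called, and lower in 17, where 1.79% were. MM was higher on the 3′ side in 46 (29.2% of all genes) and lower in 45 (11.4%). The 31 genes include Iqschfp and Schip1, which overlap, and Gm42416, Gm37013 and Gm37388, which overlap as well. Without the 6 gene models that hold many other genes, HC/CH was higher in 27 of 212 (1.67%) and lower in 16 (1.79%). MM was then higher in 46 (29.2%) and lower in 41 (11.4%). With replicate 1 alone, where 13343 genes could be tested and adjusted over, HC/CH was higher in 75 of the long genes (8.14% of all genes) and lower in 34 (8.71%), and MM was higher in 79 (41.5%) and lower in 73 (21.1%). A long gene has more calls than most others, which lets smaller differences pass this test, and the share of that was not tested. By a rule of size without a test, a difference of at least 1 percentage point in both replicates, HC/CH was higher in 16 long genes (10.2% of all genes) and lower in 7 (13.4%), and MM was higher in 64 (47.9%) and lower in 59 (23.4%).

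Among the genes called, ranked on the replicate with the smaller difference, HC/CH rose most in Schip1 (chr3:68064802-68626481), a gene for a protein that binds schwannomin. Its level was 2.95% on the 5′ side and 5.36% on the 3′ side in replicate 1 and 2.34% and 4.90% in replicate 2, with Fisher's exact test adjusted p-values of 6.76e-29 and 2.38e-07. In Etl4 (chr2:19909780-20810713), known from notochord development, it went from 3.49 to 5.66% and from 2.64 to 5.42% (1.35e-26 and 1.04e-09 by Fisher's exact test). In Pde4d (chr13:108449948-109953461) it went from 2.42 to 4.79% and from 1.79 to 3.96% (1.46e-85 and 1.69e-17 by Fisher's exact test). In Pde4d the step lay between part 5, at 2.57% and 1.70%, and part 6, at 4.51% and 3.94%, with no part of the 5′ side as high as any of the 3′ side in either replicate.

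By the same ranking, HC/CH fell most in Ryr2 (chr13:11553102-12106945), from 4.94 to 3.02% and from 4.74 to 2.10%, with Fisher's exact test adjusted p-values of 2.06e-17 and 2.09e-07. In Grid1 (chr14:34820108-35583379), a delta glutamate receptor gene, it fell from 3.72 to 2.22% and from 3.24 to 1.34% (6.79e-15 and 1.38e-05 by Fisher's exact test). In Ptprg it fell from 5.66 to 4.34% and from 6.08 to 3.71% (3.76e-10 and 1.07e-06 by Fisher's exact test), and the level went from 6.20% and 6.99% in part 1 to 3.43% and 2.76% in part 10. MM on the other hand rose in Ptprg from 47.8 to 55.5% and from 49.7 to 57.9%, and also in Sorcs1, a sorting receptor gene, from 57.0 to 63.5% and from 57.1 to 68.4%. MM also rose in 5730522E02Rik, from 54.7 to 61.5% and from 57.7 to 65.3%. MM fell most, by the same ranking, in Dlgap1, a postsynaptic scaffold gene, from 63.9 to 51.7% and from 68.8 to 55.0%, and in the overlapping protocadherin models Gm37013 (42.1 to 30.7% and 46.3 to 35.1%) and Gm37388 (41.8 to 30.6% and 45.8 to 35.1%).

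**Figure D5:**
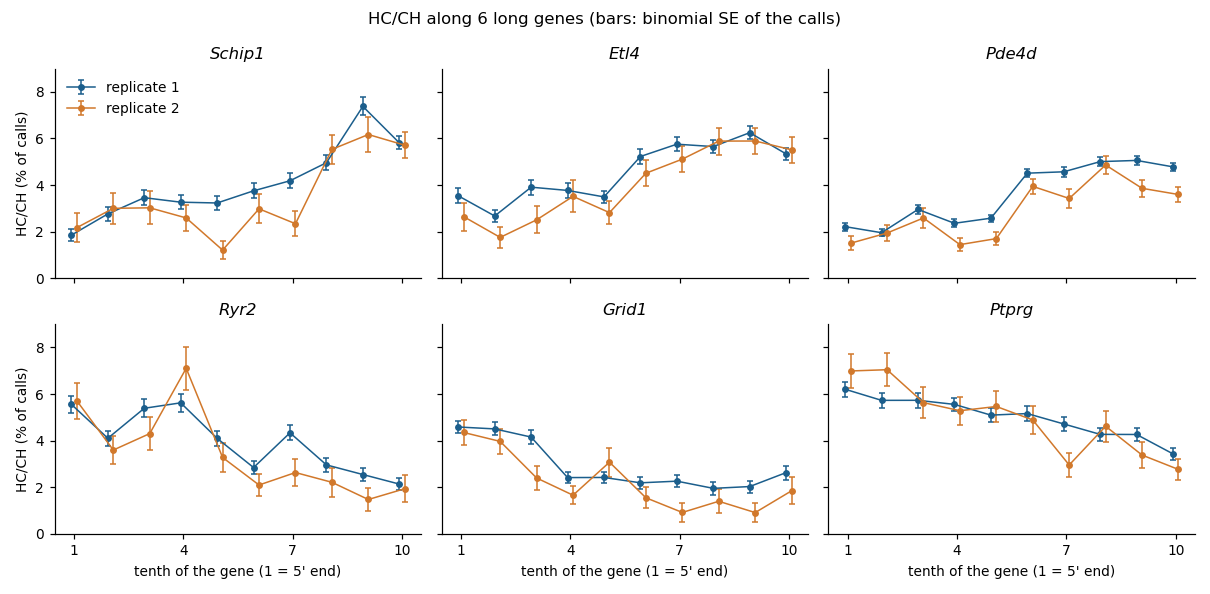
HC/CH in percent of calls on the vertical axis in each of 10 equal parts of 6 long genes, from the 5′ end at 1 to the 3′ end at 10, with 1 line for each replicate and bars for the binomial standard error of the calls. Schip1, Etl4 and Pde4d are higher toward the 3′ end and Ryr2, Grid1 and Ptprg toward the 5′ end in both replicates, with Pde4d at 2.57% and 1.70% in part 5 and 4.51% and 3.94% in part 6.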

How the data were processed

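Per the submitters' notes and the methods of the study, the authors trimmed with Cutadapt 4.6, used BSBolt for alignment to GRCm38 and Picard 3.1.1 for duplicates, and called 1 CpG state from each read pair and site. The deposited values are counts of the calls of a state at a site, with the depth, without correction by the spike-ins, and the authors discarded sites with fewer than 5 calls, blacklisted sites and sites with multiple calling errors in each replicate. The deposited percent column is the count divided by the depth and was not used further. The files list sites that passed these limits, so poorly covered and repetitive stretches of a gene are underrepresented.

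The counts were summed over sites in Python 3.11.15 with pandas 2.3.3 and NumPy 2.4.6, tests used SciPy 1.17.1, and Matplotlib 3.10.9 drew the figures. All positions on the 19 autosomes lay on the C of a CpG of GRCm38. Sites were used in gene spans beyond 2 kb from the start. Genes needed 500 calls in each replicate to be ranked and 200 calls on each side of the midpoint to be tested. The genes named were the highest, the lowest and the longest by fixed ranks and the 3 longest of each list, as printed, except that 1 sequence window and 1 gene are not reported here. The members, lists and tests were chosen with earlier results of these data known. Corrected levels used the call rates of the duplexes of the same replicate, with negative solutions set to 0. The sign-flip test, the correction for miscalls and the test of the sides of the midpoint were tried on simulated data, and the other steps were not. The simulated calls had counting error only. The simulated autosome differences spread less than those of CC, of MM and, except between the strands, of MC/CM. They also spread less than those of HC/CH between the last and first parts, between exons and introns and, in replicate 2, against the flanks.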

Additional observations from a re-analysis of the deposited data

How the results depend on the processing

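The comparisons lie within each of 2 libraries of 1 condition, so an exact permutation test over libraries cannot go below p = 0.5 and was not run, and replicate 2 had fewer calls at fewer sites. No paired analysis was possible because the labels give only 1 group, with no second group to pair. The 6 gene models, the local CpG density and the settings of the counts in the lowest or highest 25% were alternatives chosen after seeing the data. Values below are means of both replicates in percentage points, and where a call changed the cause was not tested. The lower HC/CH and HM/MH and the higher MC/CM against shorter genes kept direction and call under every alternative run. CC against shorter genes became called after correction (−2.43), as a mean over sites (−2.68), with each gene equal (−5.12), without sites near any transcript start (−1.94), without sites in other protein-coding genes (−3.37), at 6 to 10 CpGs (−2.49) and without the 6 models (−3.59), and was +0.176 and not called against genes of 100 to 500 kb, where MM (+1.04) lost its call. Without 1 replicate it ranged from −2.51 to −2.28, called with replicate 1.

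Against the flanks, CC (−2.29 and −2.08), MM (+2.29 and +2.16) and HC/CH (−0.248 and −0.268) became called without sites in other protein-coding genes and without the 6 models. Uncalled differences changed sign for CC (+0.0320) and MC/CM (−0.0354) at 3 to 5 CpGs, MC/CM with at least 10 calls a site (−0.214), and HM/MH with flanks of 50 kb (+0.00292) and 200 kb (+0.0229) and without replicate 2 (from −0.0354 to +0.0157). HM/MH of part 10 against part 1 of the genes lost its call with at least 10 calls a site (+0.219), each gene equal (+0.172), at 3 to 5 CpGs (+0.108) and at 6 to 10 (+0.174). With replicate 1 alone MC/CM and HC/CH were called there, and without 1 replicate they ranged from −0.512 to −0.452 and from +0.310 to +0.349.

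Exons against introns lost the calls at 3 to 5 CpGs for HC/CH (+0.105) and HM/MH (+0.387) and at 6 to 10 (+0.255 and +0.205), while uncalled MM changed sign at sites in both replicates (+0.375), without sites near transcript starts (+1.07), at 3 to 5 CpGs (+1.48) and at 6 to 10 (+3.07). Of the strands, MC/CM was −0.00218 at sites in both replicates and −0.00855 at 3 to 5 CpGs, HM/MH was +0.00101 at 3 to 5 CpGs, and without 1 replicate MC/CM ranged from −0.0137 to +0.0369, HC/CH from −0.0120 to +0.000807 and HM/MH from −0.0192 to +0.00417, none called.

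Between the sides of the midpoint, HC/CH was higher in 16 genes (10.2% of all genes) and lower in 7 (13.4%) with a difference of at least 1 percentage point, and lower in 10 (1.04%) at sites in both replicates. With at least 10 calls a site, of 134 long genes among 323 tested, it was higher in 4 (1.24%) and lower in 1 (0.31%), and MM was higher in 8 (15.8%) and lower in 15 (10.8%). Without 1 replicate, HC/CH was higher in 32 to 75 long genes (2.48 to 8.14% of all genes) and lower in 20 to 34 (2.92 to 8.71%), and MM was higher in 52 to 79 (32% to 41.5%) and lower in 49 to 73 (14.1 to 21.1%). With at least 10 calls a site, 135 long genes and 311 genes in all could be ranked, and the outer 25% held 28 (lowest CC, 16.1% of those ranked), 43 (lowest HC/CH, 16.7%), 28 (lowest HM/MH, 13.2%), 37 (highest MC/CM, 15.4%) and 34 (highest MM, 17.4%). Of 80 recomputed counts of this kind 20 moved by over 1.5 times. Beside these, the moved counts over all settings were those of long genes with the lowest MC/CM or MM or the highest CC, HC/CH or HM/MH. They ran from 1 to 18 of the 135 to 218 long genes ranked. The shares of all genes ranked in the same settings ran from 11.9 to 25.0%, with 25.0% where 1 replicate was used. The HC/CH level of a named gene moved beyond the SD of the replicates in 42 of 275 recomputed values, with 23 moved and 36 not after correction and 13 moved and 30 not with at least 10 calls a site.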
